A study of Mus musculus with 12 samples.

Results

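YAP is a transcriptional coactivator that binds DNA through the TEAD transcription factors, and 10 mouse genes of this pathway were described here across 4 kinds of pancreatic cell. They were Yap1 and Tead1 themselves and 8 genes widely used as readouts of YAP and TEAD activity, namely Ccn1, Ccn2, Ankrd1, Amotl2, Ajuba, Myof, F3 and Axl. The genes were listed by name, and each was read from the probe set that carried its symbol alone and had the highest mean over all 12 arrays. All 10 were measured, out of 22180 genes with such a probe set. Each group had 3 arrays, numbered as replicates 1 to 3. Acinar cells make and secrete the digestive enzymes of the pancreas, and those from adults and embryos were taken straight from collagenase-digested tissue into RNA extraction, and the labels give no age for either. Cultures in acinar-to-ductal metaplasia (ADM), in which acinar cells take on duct features, had been embedded in collagen for 7 days and given TGF-alpha, an EGF receptor ligand, at 50 ng/ml. Tumor cells were at low passage in standard medium. Every sample carries the same strain label, C57Bl6/J wildtype, including the tumor cells, whose driver mutations the labels leave out. The short names of the 3 tumor samples share 1 number, and nothing says whether replicates were separate animals, cultures or tumors, so p-values measure only the spread between these arrays. Culture, collagen and TGF-alpha reached the ADM samples together and cannot be told apart. Tumor cells were cultured while both acinar groups were freshly isolated, so tumor origin and culture cannot be told apart in those comparisons either.

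The Hippo pathway is a kinase cascade that keeps YAP and its relative TAZ (gene Wwtr1) out of the nucleus. The kinases encoded by Stk3 and Stk4 act on Lats1 and Lats2, which phosphorylate YAP and TAZ, and the phosphorylated proteins are retained in the cytoplasm or degraded. When the cascade is quiet, as on stiff matrix or in spread cells, YAP and TAZ enter the nucleus and switch on genes through TEAD. Activity is therefore set largely by protein location, which an RNA array does not measure. In the pancreas, YAP is known to be low in resting acinar cells and to be raised in ducts, in metaplasia and in pancreatic cancer.

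Values were log2 signals as the authors deposited them, so a difference of 1 is a 2-fold change, and levels were compared only between groups for the same gene. Genes at or under 3.62 were taken as not above background, a level set by olfactory and vomeronasal receptor genes. Calls required an absolute log2 difference of at least 1 and an adjusted p under 0.05 (limma, Benjamini-Hochberg over all 22180 genes). Errors beside levels are SD and those beside differences are SE, both with n = 3 arrays a group. The 75th percentile of signal lay between 5.04 and 5.10 on adult arrays and between 5.39 and 5.51 on the others. Quantile normalization lowered the share of calls that were higher from 74.7% to 59.4% for ADM against adult, from 79.3% to 64.0% for embryonic against adult and from 70.2% to 57.4% for tumor against adult. Centring on 11 housekeeping genes, whose mean was 8.90 on adult and 9.74 on tumor arrays, lowered these shares to 9.80%, 34.4% and 11.1%. It moved the median difference of all genes against adult from -0.11 to -0.92 in ADM cultures, from -0.087 to -0.52 in embryonic cells and from -0.09 to -0.93 in tumor cells. Against embryonic cells it lowered the share from 48.1% to 22.3% for ADM and from 45.5% to 19.9% for tumor cells, and it moved those medians from 0.0033 to -0.38 and from 0.07 to -0.34. In the deposited values, 4 of the 11 housekeeping genes were themselves called higher in ADM and 5 in tumor cells than in adult cells. The labels were checked against defining markers. The acinar enzyme gene Cpa1 averaged 13.13 on adult, 12.89 on embryonic and 12.41 on ADM arrays but 3.96 in tumor cells. It was 1 of 2 acinar markers not called lower in ADM. The other 6 of 8 were, among them the amylase gene Amy2b, from 11.10 to 4.61, the acinar transcription factor gene Bhlha15, from 10.05 to 4.16, and the elastase gene Cela1, from 13.23 to 8.44. All 8 were lower in tumor cells. The duct keratin Krt19 averaged 6.92 on adult, 10.12 on ADM and 10.37 on tumor arrays. The epithelial surface gene Epcam averaged 6.82 on adult, 9.09 on ADM and only 3.82 on tumor arrays. Of 6 measured ductal markers, 5 were called higher in ADM than in adult cells, where 12.5% of all genes were. In tumor cells 2 were higher and 2 lower, where 14.0% and 5.96% of all genes were. Sox9 averaged 8.30 on adult, 7.74 on ADM and 6.55 on tumor arrays. Cldn4 and Cftr were at background in tumor cells, at 3.55 and 3.49.

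The promoters of 8 of the 10 genes were matched in a RefSeq table on GRCm38.p6, all but those of Tead1 and Ccn2. The window searched was the 250 bases upstream of the start. TEAD proteins recognise a core of GGAATG, which reads CATTCC on the other strand. At least 1 such match was found in 6 of the 8 windows, against 12.6% of all 32851 windows of the same length in the table. The 4 windows printed here are those of Ankrd1 and Ajuba, which held 2 matches each, of Ccn1, and of Amotl2, which held a match although its signal was flat in the arrays. They lie at chr19:36119845-36120094 (minus strand), chr14:54577662-54577911 (minus strand), chr3:145649986-145650235 (minus strand) and chr9:102717554-102717803 (plus strand). Each is written 5′ to 3′ towards the start, and capitals mark the TEAD core matches.
Ankrd1: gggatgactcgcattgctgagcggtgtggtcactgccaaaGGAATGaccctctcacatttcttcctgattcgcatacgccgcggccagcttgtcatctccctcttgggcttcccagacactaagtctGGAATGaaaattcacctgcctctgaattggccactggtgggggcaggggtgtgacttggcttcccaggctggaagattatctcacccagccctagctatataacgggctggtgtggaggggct
Ajuba: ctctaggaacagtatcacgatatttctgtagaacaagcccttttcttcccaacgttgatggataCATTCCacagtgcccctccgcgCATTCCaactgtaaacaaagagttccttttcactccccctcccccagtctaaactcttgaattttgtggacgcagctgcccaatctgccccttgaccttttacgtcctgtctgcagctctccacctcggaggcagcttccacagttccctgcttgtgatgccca
Ccn1: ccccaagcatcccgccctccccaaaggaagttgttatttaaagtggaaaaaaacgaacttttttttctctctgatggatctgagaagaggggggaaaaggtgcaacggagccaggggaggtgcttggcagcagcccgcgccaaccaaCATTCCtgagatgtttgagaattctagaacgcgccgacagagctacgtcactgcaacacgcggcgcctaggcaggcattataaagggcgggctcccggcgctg
Amotl2: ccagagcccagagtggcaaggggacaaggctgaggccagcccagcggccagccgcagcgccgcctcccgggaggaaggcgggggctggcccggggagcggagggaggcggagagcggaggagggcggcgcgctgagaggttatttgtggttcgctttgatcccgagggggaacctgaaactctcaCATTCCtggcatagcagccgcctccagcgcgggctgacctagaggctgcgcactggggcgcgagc
Counted from the start, the matches began at bases -210 and -123 in Ankrd1, -186 and -164 in Ajuba, -103 in Ccn1 and -65 in Amotl2. Single matches were also found for Yap1 (-141) and Axl (-233). Neither Myof nor F3 held the core in this window. The F3 window instead held 2 matches to TGANTCA, the AP-1 motif, which reads the same in this notation on both strands, overlaps no TEAD core there and was found in 6.75% of all windows. These are letter matches, not measured binding sites.

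**Figure D1:**
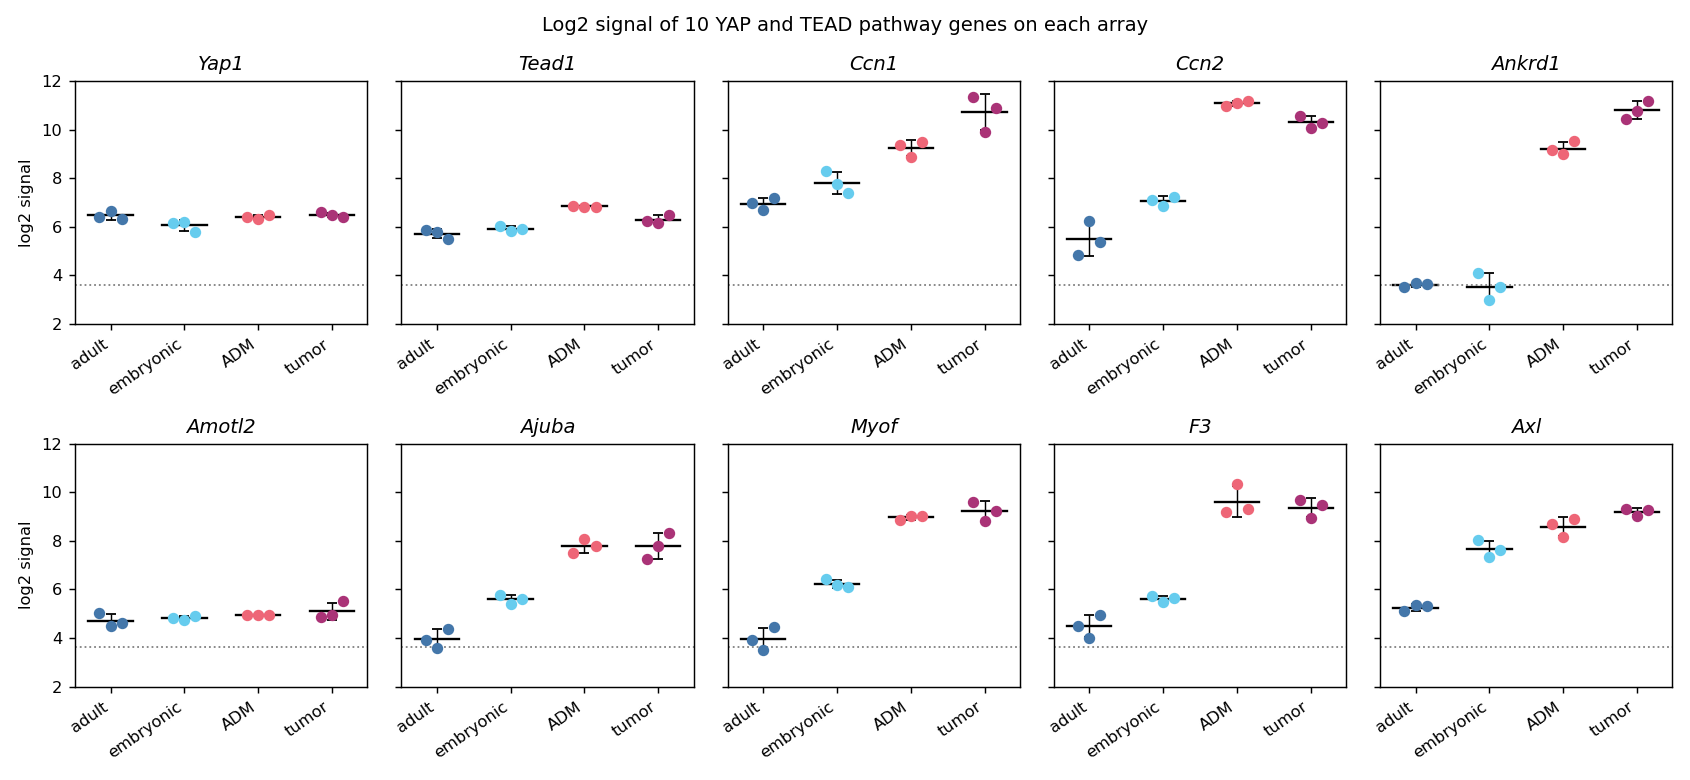
Log2 signal (y axis) of each of the 10 genes on the 12 arrays by group (x axis). Points are arrays in replicate order, horizontal bars are group means, error bars are SD, and the dotted line is the background level of 3.62. Ankrd1 lies at the background line in adult and embryonic cells and at 9.0 or above on every ADM and tumor array, whereas Yap1 and Amotl2 stay nearly level.

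Yap1 itself showed almost the same signal in all 4 groups. It read 6.42, 6.66 and 6.31 on adult arrays, 6.17, 6.21 and 5.79 on embryonic arrays, 6.42, 6.31 and 6.49 on ADM arrays and 6.59, 6.48 and 6.40 on tumor arrays. Only the embryonic arrays sat apart, all below the others, and adult, ADM and tumor arrays overlapped. The ADM level differed from adult by -0.06 ± 0.16 (95% interval -0.395 to 0.282, adjusted p = 0.795) and the tumor level by 0.03 ± 0.16 (95% interval -0.312 to 0.365, adjusted p = 0.915). No pair of groups passed the test for Yap1. The lowest adjusted p, 0.058, was that of tumor against embryonic cells, at 0.43 ± 0.16. Of all genes, 68.4% had a wider range of group means than Yap1. Under quantile normalization the ADM and tumor values against adult moved to -0.56 and -0.50, and under housekeeping centring to -0.87 and -0.82, still under the fold minimum, and the embryonic value moved to -0.84 under both. These shifted values had adjusted p between 0.000478 and 0.0273. A second Yap1 probe set read between 3.31 and 3.94 on all arrays, near background.

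Tead1, the DNA-binding partner, rose modestly in ADM cultures. Its signal was 5.85, 5.80 and 5.51 in adult cells, 6.04, 5.84 and 5.90 in embryonic cells, 6.87, 6.83 and 6.83 in ADM cultures and 6.24, 6.14 and 6.50 in tumor cells. The ADM arrays stood above all 9 others, followed by the tumor arrays, while adult and embryonic arrays overlapped. Tead1 was higher by 1.12 ± 0.15 in ADM than in adult cells (adjusted p = 5.85e-05). That call was lost under quantile normalization, at 0.62, and under housekeeping centring, at 0.31. Tumor cells lay 0.57 ± 0.15 above adult cells (adjusted p = 0.00775) and 0.55 ± 0.15 below ADM cultures (adjusted p = 0.0227), both under the fold minimum, and the first of these was 0.04 under quantile normalization and turned to -0.27 with housekeeping centring.

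In the deposited values, Wwtr1, Tead2 and Tead4 had larger differences from adult cells than Yap1 and Tead1 in both ADM and tumor samples, and Tead3 did not exceed Tead1 in ADM. Wwtr1, which encodes TAZ, read 5.87, 6.29 and 5.60 on adult, 8.04, 7.78 and 7.46 on embryonic, 8.76, 8.64 and 8.56 on ADM and 8.71, 8.23 and 8.30 on tumor arrays. It rose against adult cells by 2.73 ± 0.21 in ADM (adjusted p = 4.58e-07), 2.49 ± 0.21 in tumor cells (adjusted p = 5.9e-07) and 1.84 ± 0.21 in embryonic cells (adjusted p = 2.46e-05). Adult arrays were the lowest for Wwtr1, and ADM and tumor arrays overlapped. Tead2 ran the other way, at 8.34, 8.56 and 8.23 on adult arrays, 7.04, 7.42 and 7.01 on embryonic, 6.67, 6.85 and 6.67 on ADM and 6.72, 6.35 and 6.40 on tumor arrays. It fell by 1.65 ± 0.17 in ADM cultures, by 1.89 ± 0.17 in tumor cells and by 1.22 ± 0.17 in embryonic cells, all against adult (adjusted p = 5.33e-06, 9.96e-07 and 0.000116). Tead4 was 4.13, 4.0 and 4.49 in adult cells, 4.16, 4.52 and 4.27 in embryonic cells, 6.05, 5.84 and 5.74 in ADM cultures and 6.54, 7.01 and 7.27 in tumor cells. The freshly isolated groups overlapped for Tead4, ADM stood above them and tumor cells above ADM. Tead4 rose by 1.67 ± 0.20 in ADM (adjusted p = 2.68e-05) and by 2.73 ± 0.20 in tumor cells (adjusted p = 1.95e-07) against adult, and by 1.06 ± 0.20 in tumor cells against ADM (adjusted p = 0.00252). Every one of these Wwtr1 and Tead2 calls held under quantile normalization and housekeeping centring. The Tead4 calls held too, except ADM against adult under housekeeping centring, at 0.86. Tead3 was called in ADM at 1.03 ± 0.15 (adjusted p = 0.000154), a call lost under quantile normalization (0.68) and housekeeping centring (0.22).

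Ccn2 and Ccn1 encode secreted matricellular proteins of the CCN family, long known as CTGF and CYR61, which bind integrins and the matrix. Ccn2 read 4.85, 6.22 and 5.39 on adult arrays, 7.12, 6.84 and 7.21 on embryonic arrays, 10.96, 11.09 and 11.19 on ADM arrays and 10.58, 10.05 and 10.29 on tumor arrays. No 2 groups overlapped, in the order adult, embryonic, tumor, ADM, and adult replicate 2 was the highest of a spread-out adult group. Ccn2 rose 48.3-fold in ADM, by 5.59 ± 0.27 (adjusted p = 1.01e-08), and 28.2-fold in tumor cells, by 4.82 ± 0.27 (adjusted p = 1.74e-08). In embryonic cells it rose 2.97-fold, by 1.57 ± 0.27 (adjusted p = 0.000831), a call lost at 0.77 when it was averaged with its other probe set. That other probe set read only 2.77 to 4.47. Tumor cells lay 0.77 ± 0.27 below ADM cultures (adjusted p = 0.0799), which did not pass.

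Ccn1 had the opposite order of the cultured groups. Its arrays read 6.96, 6.69 and 7.18 in adult cells, 8.29, 7.75 and 7.37 in embryonic cells, 9.37, 8.86 and 9.47 in ADM cultures and 11.34, 9.89 and 10.90 in tumor cells. Again no 2 groups overlapped, here rising from adult through embryonic and ADM to tumor cells, with tumor replicate 2 lower than the other tumor arrays. Ccn1 rose 4.89-fold in ADM, by 2.29 ± 0.33 (adjusted p = 0.000123), and 13.6-fold in tumor cells, by 3.77 ± 0.33 (adjusted p = 9.96e-07). Tumor cells exceeded ADM cultures by 1.48 ± 0.33 (adjusted p = 0.0076). The embryonic value, 0.86 ± 0.33 against adult (adjusted p = 0.0675), did not pass, and passed at 1.08 (adjusted p = 0.0468) without embryonic replicate 3. It was 0.56 under quantile normalization and 0.43 under housekeeping centring.

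Ankrd1, an ankyrin repeat protein of the nucleus and of muscle sarcomeres, was at background in both freshly isolated groups and high in both cultured ones. It read 3.51, 3.69 and 3.63 on adult arrays, 4.09, 2.98 and 3.51 on embryonic arrays, 9.15, 9.0 and 9.51 on ADM arrays and 10.44, 10.75 and 11.18 on tumor arrays. Both freshly isolated groups averaged at background, at 3.61 ± 0.092 and 3.53 ± 0.56, so no fold is given between them (adjusted p = 0.828). Against that background the ADM signal was at least 48.5-fold higher (adjusted p = 6e-09 against adult) and the tumor signal at least 143.9-fold higher (adjusted p = 3.68e-10). Tumor cells exceeded ADM cultures by 1.57 ± 0.26 (adjusted p = 0.000959), with no overlap.

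Amotl2 and Ajuba encode proteins that act back on the pathway. Amotl2, an angiomotin relative that holds YAP at cell junctions, read 5.01, 4.51 and 4.61 on adult, 4.83, 4.74 and 4.90 on embryonic, 4.95, 4.96 and 4.93 on ADM and 4.85, 4.95 and 5.51 on tumor arrays. Adult arrays spanned the embryonic and ADM ranges, and tumor replicate 3 was the only array above 5.01. No comparison passed for Amotl2, whose differences ran from 0.11 ± 0.19 for embryonic against adult to 0.39 ± 0.19 for tumor against adult (95% interval -0.00947 to 0.796, adjusted p = 0.119). With housekeeping centring every difference of Amotl2 from adult cells turned negative, with ADM at -0.57, embryonic cells at -0.32 and tumor cells at -0.45. Ajuba, a LIM protein that restrains the Lats kinases, was 3.91, 3.58 and 4.38 in adult cells, 5.77, 5.41 and 5.61 in embryonic cells, 7.52, 8.08 and 7.78 in ADM cultures and 7.26, 7.78 and 8.32 in tumor cells. Adult arrays were lowest and lay close to background, embryonic arrays were intermediate, and the cultured groups overlapped fully. Ajuba rose 14.3-fold in ADM, by 3.84 ± 0.27 (adjusted p = 2.06e-07), 14.2-fold in tumor cells, by 3.83 ± 0.27 (adjusted p = 1.1e-07), and 3.12-fold in embryonic cells, by 1.64 ± 0.27 (adjusted p = 0.000469). The tumor to ADM difference was -0.01 ± 0.27, with a 95% interval from -0.581 to 0.567.

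Myof, F3 and Axl encode membrane proteins. Myof, or myoferlin, which serves membrane fusion and repair, read 3.91, 3.52 and 4.45 on adult, 6.41, 6.17 and 6.09 on embryonic, 8.86, 9.01 and 9.04 on ADM and 9.62, 8.81 and 9.25 on tumor arrays. Its adult arrays lay close to background, the embryonic arrays stood clear of them, and ADM and tumor arrays overlapped. Myof rose 32.2-fold in ADM, by 5.01 ± 0.24 (adjusted p = 7.71e-09), 38.5-fold in tumor cells, by 5.27 ± 0.24 (adjusted p = 2.37e-09), and 4.80-fold in embryonic cells, by 2.26 ± 0.24 (adjusted p = 1.43e-05).

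F3, tissue factor, the cell-surface starter of coagulation, read 4.51, 4.02 and 4.96 on adult, 5.73, 5.47 and 5.63 on embryonic, 9.18, 10.34 and 9.30 on ADM and 9.68, 8.94 and 9.49 on tumor arrays. ADM replicate 2 was the highest of all 12, and the other ADM arrays lay within the tumor range. F3 rose 34.5-fold in ADM, by 5.11 ± 0.31 (adjusted p = 6.66e-08), and 29.3-fold in tumor cells, by 4.87 ± 0.31 (adjusted p = 4.75e-08). The embryonic rise of 1.11 ± 0.31 (adjusted p = 0.0161) was the least firm call of the 10 genes. The adjusted p was 0.0833 under quantile normalization (difference 0.90) and 0.0733 under housekeeping centring (0.68), which ended the call. Leaving out embryonic replicate 1 (1.05, adjusted p = 0.0568) or the second adult array (0.88, adjusted p = 0.0667) ended it too.

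Axl, a receptor tyrosine kinase for the ligand Gas6, was 5.10, 5.36 and 5.30 in adult cells, 8.03, 7.35 and 7.61 in embryonic cells, 8.71, 8.14 and 8.90 in ADM cultures and 9.32, 9.03 and 9.26 in tumor cells. The groups did not overlap, but the gaps among the last 3 were small next to the gap from adult to embryonic cells. Against adult cells, Axl rose by 2.41 ± 0.22 in embryonic cells (adjusted p = 3.43e-06), 3.33 ± 0.22 in ADM (adjusted p = 1.2e-07) and 3.95 ± 0.22 in tumor cells (adjusted p = 1.23e-08). ADM exceeded embryonic cells by 0.92 ± 0.22 (adjusted p = 0.00839), under the fold minimum. Without ADM replicate 2 or without embryonic replicate 1 this difference, at 1.14 and 1.10, was called. Leaving out other arrays gave values down to 0.76, quantile normalization gave 0.86, and housekeeping centring gave 0.54 (adjusted p = 0.0869). Tumor cells lay 0.62 ± 0.22 above ADM (adjusted p = 0.0736).

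**Figure D2:**
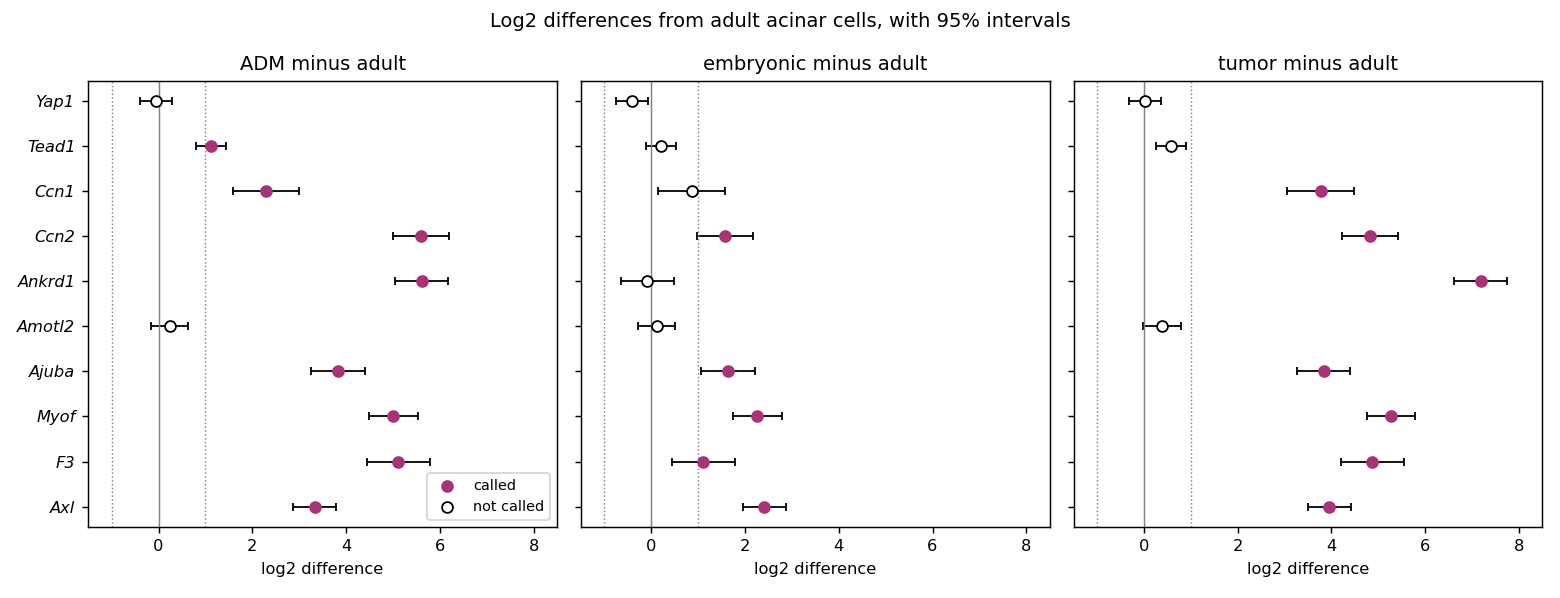
Log2 differences from adult acinar cells (x axis) for each gene (y axis) in ADM, embryonic and tumor samples. Bars are 95% intervals, filled points were called, and dotted lines mark a difference of 1 either way. Ankrd1 is drawn at its measured difference although adult and embryonic cells were at background, so its fold is only bounded, at 48.5 or more in ADM and 143.9 or more in tumor cells. Yap1 and Amotl2 are open points in all 3 panels.

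Set against adult acinar cells, 8 of the 10 genes were called higher in ADM cultures, where 12.5% of all genes were. In tumor cells 7 of 10 were called higher, where 14.0% of all genes were, and in embryonic cells 5 of 10, where 10% were. None of the 10 was called lower, where 4.22% of all genes were in ADM, 5.96% in tumor and 2.61% in embryonic cells. These 3 comparisons share the adult arrays. The median difference of the 10 genes was 3.58 in ADM, 3.89 in tumor and 0.99 in embryonic cells, beside -0.11, -0.09 and -0.087 over all genes. Ccn2, Ajuba, Myof, F3 and Axl were called in all 3. Ccn1 and Ankrd1 were called in ADM and tumor cells, and Tead1 in ADM alone. The difference between ADM and embryonic cells, tested directly, was called for Ccn1 at 1.43 ± 0.33 (adjusted p = 0.00784) and for Ankrd1, at least 48.5-fold higher in ADM (adjusted p = 7.84e-09). For Tead1 it was 0.92 ± 0.15 (adjusted p = 0.000636), under the fold minimum. Arrays of ADM and adult cells did not overlap for 8 of the 10, all higher in ADM, where 25.1% of all genes were higher without overlap. The same held for 8 of 10 in tumor cells, where 22.9% of all genes were, and for 6 of 10 in embryonic cells, where 22.0% were.

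Among the other groups, ADM cultures had 6 of 10 genes called higher than embryonic acinar cells, where 4.55% of all genes were. All 10 were higher in ADM without overlap of arrays, where 20.1% of all genes were. The smallest were Amotl2 at 0.12 ± 0.19 (adjusted p = 0.788) and Yap1 at 0.35 ± 0.16 (adjusted p = 0.168). Both turned negative with housekeeping centring, at -0.255 and -0.0285. None of the 10 was called lower, where 4.91% of all genes were. The largest of these differences after Ankrd1 were Ccn2 at 4.02 ± 0.27 (adjusted p = 2.77e-07), F3 at 4.0 ± 0.31 (adjusted p = 9.28e-07) and Myof at 2.75 ± 0.24 (adjusted p = 2.78e-06). Tumor cells had 7 of 10 called higher than embryonic cells, where 6.53% of all genes were, and the additional gene was Axl at 1.54 ± 0.22 (adjusted p = 0.000119). Arrays of 9 of the 10 were higher in tumor cells without overlap, where 22.1% of all genes were, and none was called lower, where 7.80% were. Between tumor cells and ADM cultures only Ccn1 and Ankrd1 were called, both higher in tumor cells, where 3.28% of all genes were. None was called lower, where 5.07% were, and 3 of 10 were higher without overlap, where 17.7% were. For Myof the tumor to ADM difference was 0.26 ± 0.24 (95% interval -0.259 to 0.772) and for F3 it was -0.24 ± 0.31 (95% interval -0.903 to 0.430).

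**Figure D3:**
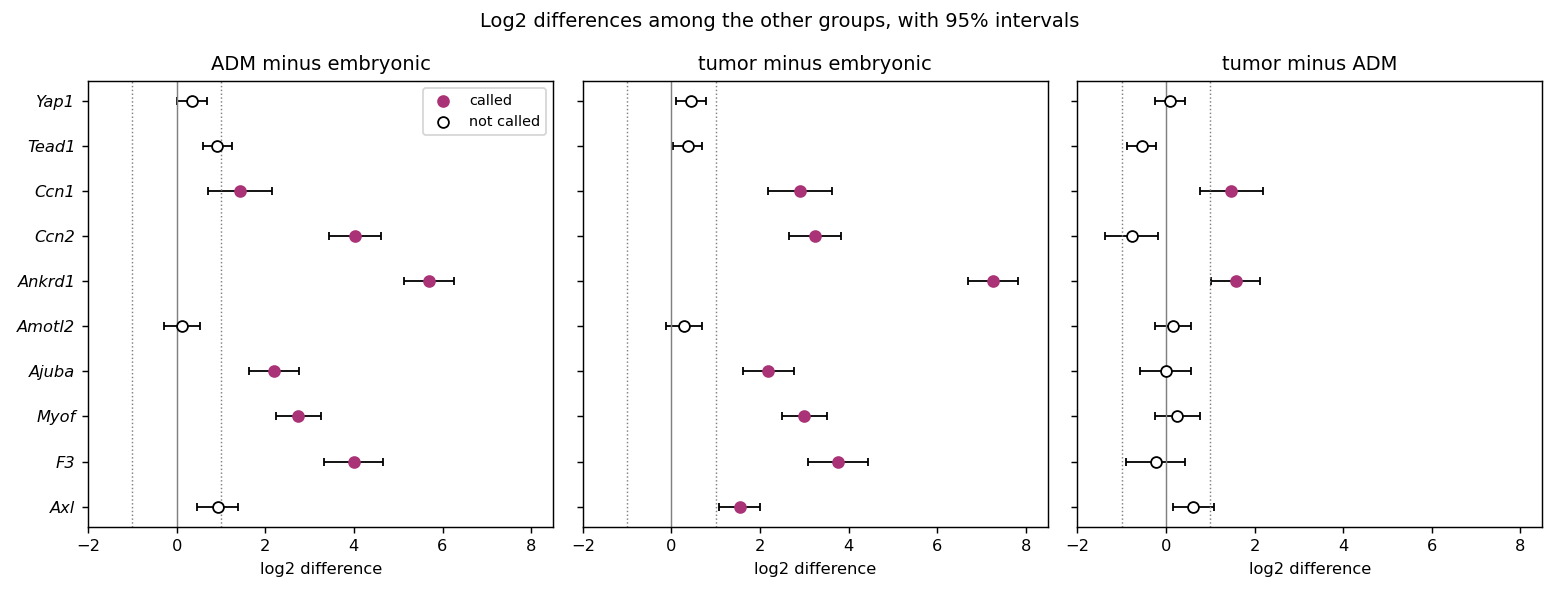
Log2 differences (x axis) for each gene (y axis) between ADM and embryonic, tumor and embryonic, and tumor and ADM samples, drawn with 95% intervals, filled points for called genes and dotted lines at a difference of 1 either way. In the tumor to ADM panel only Ccn1, at 1.48, and Ankrd1, at 1.57, are filled. In the other panels Ankrd1 is drawn at its measured difference from embryonic cells, which were at background.

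The rest of the pathway was read from 4 lists by role. These lists overlap in Lats2, counted in the kinase core and the other targets, and Ptpn14, counted in the upstream regulators and the other targets. Of 8 coactivator and TEAD partner genes, 5 were higher and 1 was lower in ADM than in adult cells, 3 were higher and 1 lower in tumor cells, and 2 were higher and 1 lower in embryonic cells. The gene that fell each time was Tead2. The shares of all genes called higher were 12.5% in ADM, 14.0% in tumor and 10% in embryonic cells. Those called lower were 4.22%, 5.96% and 2.61%. Beside Wwtr1 and Tead4, the list included Vgll4, whose product competes with YAP for TEAD. Vgll4 was higher by 1.47 ± 0.26 in ADM (adjusted p = 0.000567), 1.42 ± 0.26 in tumor cells (adjusted p = 0.000608) and 1.3 in embryonic cells (adjusted p = 0.00213). Vgll3 was called against adult cells in ADM alone, at 1.78 (adjusted p = 0.00847), a call lost with housekeeping centring, at 0.974. With housekeeping centring this list had 1 higher and 3 lower in ADM and 2 higher and 3 lower in tumor cells. Beside Tead2, the lower genes in both were Vgll1 and Vgll2, which were at background in all 4 groups. With that centring only 9.80% of all calls were higher in ADM and 11.1% in tumor cells. Calls over all genes were also far more numerous, so lower calls do not set this list apart. Its median was 0.442 in ADM and -0.0439 in tumor cells, beside -0.92 and -0.93 over all genes. Vgll4 with housekeeping centring was at 0.66 in ADM, 0.58 in tumor and 0.87 in embryonic cells, no longer called. Its tumor and embryonic calls were also lost under quantile normalization, at 0.93 and 0.956.

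Of 6 measured Hippo kinase core genes, 2 were higher in ADM, 3 in tumor and 1 in embryonic cells than in adult cells. Over all genes 12.5%, 14.0% and 10% were called higher in the same order. None of the 6 was lower, where 4.22%, 5.96% and 2.61% of all genes were. Mob1a, an activating partner of the Lats kinases, rose by 2.42 ± 0.16 in tumor cells (adjusted p = 8.67e-08), 1.48 ± 0.16 in ADM (adjusted p = 1.23e-05) and 1.20 ± 0.16 in embryonic cells (adjusted p = 0.000124). The tumor call of Mob1a held under the other scalings, at 1.91 and 1.58, while the ADM and embryonic calls were lost under both. Lats2, a kinase gene that is also a YAP target, was at background in adult cells and at least 1.97-fold higher in ADM and 1.85-fold in tumor cells (adjusted p = 0.000263 and 0.000369). These calls were lost with housekeeping centring, at 0.44 and 0.32. Under that centring the kinase list had 1 gene lower and none higher in ADM (Lats1), 1 higher and 1 lower in tumor cells (Mob1a and Lats1), and 2 lower and none higher in embryonic cells (Lats1 and Mob1b). Lats1 lay 0.66 ± 0.14 below adult in embryonic cells (adjusted p = 0.00302), 0.43 ± 0.14 below in ADM (adjusted p = 0.0283) and 0.39 ± 0.14 below in tumor cells (adjusted p = 0.0404), all under the fold minimum. With housekeeping centring Lats1 was called lower in all 3, at -1.09, -1.24 and -1.23. The medians of all genes under that centring were -0.52, -0.92 and -0.93, and only 34.4%, 9.80% and 11.1% of all calls were higher.

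Of 15 measured upstream and junctional regulators, 10 were higher in ADM than in adult cells, 5 in tumor cells and 3 in embryonic cells. Over all genes 12.5%, 14.0% and 10% were called higher in the same order. In embryonic cells 1 regulator was lower, where 2.61% of all genes were. The tight junction scaffold gene Tjp1 rose by 1.97 ± 0.22 in ADM and by 1.94 ± 0.22 in tumor cells, and Wwc2 by 1.92 ± 0.23 and 1.73 ± 0.23 (adjusted p = 1.53e-05, 1.14e-05, 2.52e-05 and 4.27e-05). The tumor call of Wwc2 was lost with housekeeping centring, at 0.89. Fat4, an atypical cadherin gene, was at least 5.36-fold higher in embryonic than in adult cells (adjusted p = 4.35e-07) and at background in ADM and tumor cells. With housekeeping centring the counts of this list were 3 higher and 2 lower in ADM and 1 higher and 1 lower in tumor cells. Most calls over all genes were then lower, and the list medians were 0.584 and -0.117, beside -0.92 and -0.93 over all genes. The lower genes were Wwc1 and Dchs1 in ADM and Dchs1 in tumor cells. Dchs1 averaged 3.57 on ADM and 3.5 on tumor arrays, at background.

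Among 14 other measured YAP and TEAD targets, 10 were higher in ADM than in adult cells, 8 in tumor and 7 in embryonic cells. Over all genes 12.5%, 14.0% and 10% were called higher in the same order. In embryonic cells 1 target was lower, where 2.61% of all genes were. The list medians were 1.61, 1.15 and 1.01. Crim1, a membrane protein gene, rose by 4.0 ± 0.25 in tumor cells (adjusted p = 4.92e-08) and 2.40 ± 0.25 in ADM (adjusted p = 8.51e-06). Nt5e, the gene of the ectonucleotidase CD73, was at background in adult cells and at least 13.2-fold higher in tumor cells (adjusted p = 1.5e-05) and 4.78-fold in ADM (adjusted p = 0.000955). Its tumor arrays were spread widely, from 6.38 to 8.93. Ccdc80, a secreted matrix protein gene, rose by 4.62 ± 0.36 in embryonic cells (adjusted p = 1.16e-06) and 2.35 ± 0.36 in ADM (adjusted p = 0.000211) and was at background in tumor cells. Tumor cells and ADM cultures differed in 5 of the 14, with 2 higher and 3 lower in tumor cells. Between these groups 3.28% of all genes were called higher and 5.07% lower in tumor cells. With housekeeping centring, against adult cells, 6 were higher in ADM, 3 higher and 2 lower in tumor cells and 5 higher and 1 lower in embryonic cells. Most calls over all genes were then lower. The list medians under it were 0.801, 0.301 and 0.576, beside -0.92, -0.93 and -0.52 over all genes.

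**Figure D4:**
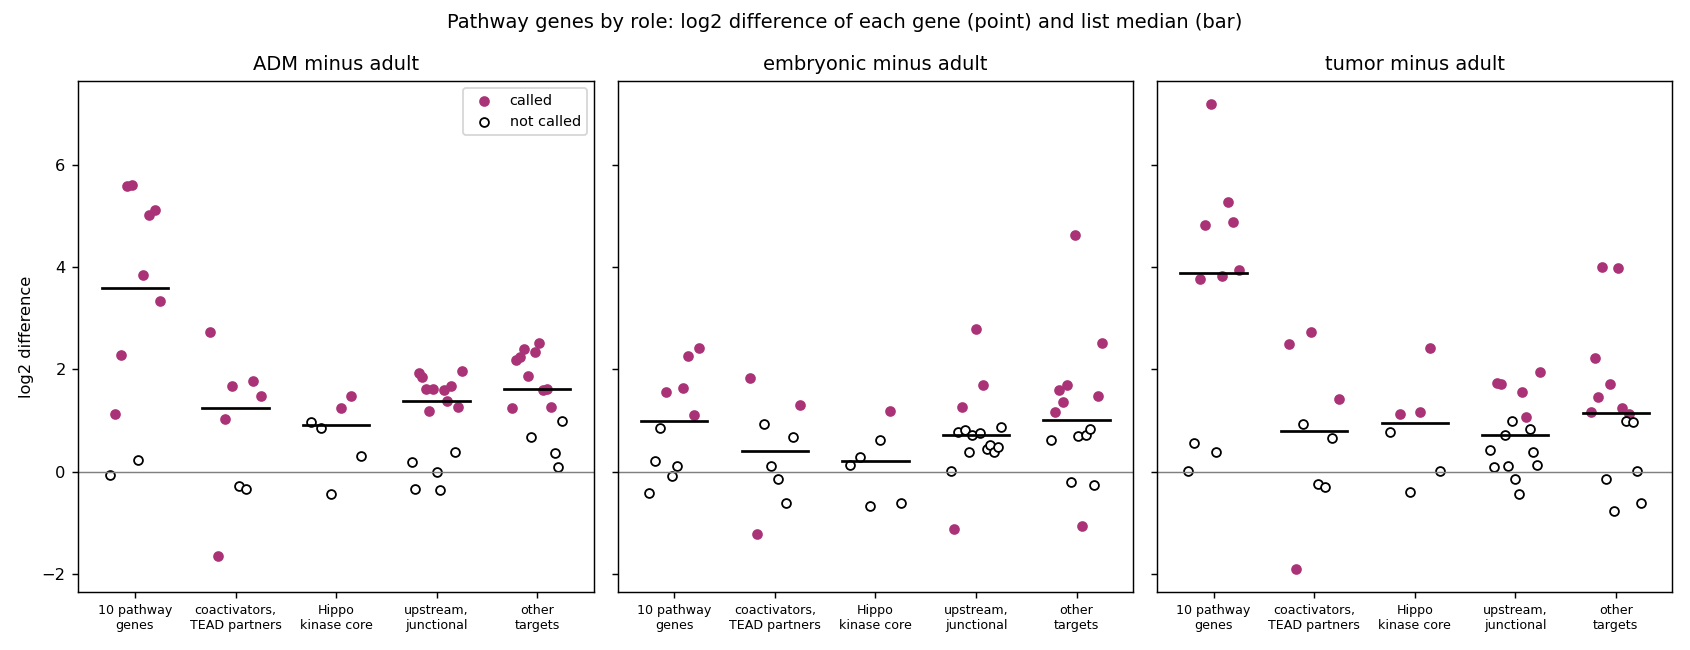
Log2 difference from adult cells (y axis) of every measured gene in the 10 pathway genes and in 4 further lists (x axis), in ADM, embryonic and tumor samples. Points are genes, filled where called and drawn at their measured differences even where a group was at background, and bars are list medians. Lats2 and Ptpn14 are drawn under each list that holds them. The 10 genes have medians of 3.58, 0.99 and 3.89, and the Hippo kinase core has 0.92, 0.21 and 0.96.

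Markers of other cells moved with the 10 genes in some groups and against them in others. The isolates and cultures were bulk samples, in which fewer cells of a type and less RNA per cell cannot be told apart. Of 12 fibroblast and stellate markers, 12 were higher in embryonic and 9 in ADM than in adult samples. Their summed log2 signal was 9.99 to 10.03 on adult, 12.74 to 13.42 on embryonic, 11.48 to 12.75 on ADM and 7.37 to 7.73 on tumor arrays. Tumor cells had 8 of these 12 markers at or under background, among them Col1a2 at 2.86 and Pdgfra at 3.26, and none was higher than in adult cells. The 4 above background in tumor cells were Acta2 at 5.75, Pdgfrb at 4.46, Col3a1 at 4.13 and Col1a1 at 3.66. The part of fibroblasts in the higher signal of the 10 genes was not tested. ADM replicate 2 had the lowest fibroblast sum, 11.48 against 12.44 and 12.75, and it also had the lowest ADM signals of Axl, Ccn1, Ankrd1 and Yap1 and the highest of F3, Ajuba and Amotl2. Without that array the differences from adult were 3.55 for Axl, 2.48 for Ccn1, 4.99 for Myof, 5.59 for Ccn2, 4.74 for F3, 3.69 for Ajuba and 1.13 for Tead1. All of these, and Ankrd1, were still called. The ADM arrays left were those with the higher fibroblast sums, so these calls do not bear on the part of fibroblasts. All 8 endothelial markers and all 5 mesothelial markers were also higher in embryonic than in adult samples, with endothelial sums of 10.99 to 11.08 against 8.78 to 9.01. All 5 endocrine markers were higher in embryonic than in adult samples too, with sums of 12.83 to 13.13 against 10.88 to 11.37, while 3 of 5 were lower in ADM and 5 of 5 in tumor cells. In ADM cultures no endothelial marker and 1 mesothelial marker was higher than in adult cells, and 1 mesothelial marker was lower. Immune markers were higher in 4 of 7 cases in embryonic, 2 in ADM and 1 in tumor samples, the last near the 14.0% of all genes.

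Ccn1 is also known as an immediate early gene, induced quickly by growth factors, so 10 immediate early genes were read beside them. In ADM cultures 3 were higher than in adult cells, in tumor cells 2 were higher and 2 lower, and in embryonic cells none was called in either direction. Over all genes, 12.5% were called higher in ADM, and 14.0% were higher and 5.96% lower in tumor cells. Ier3 was higher by 4.13 ± 0.20 in ADM (adjusted p = 9.55e-09) and by 4.05 ± 0.20 in tumor cells (adjusted p = 5.31e-09), whereas Jun fell by 2.41 ± 0.26 in tumor cells (adjusted p = 7.56e-06). The summed signal of the 10 was 13.06 on tumor replicate 1 against 11.27 and 11.57 on the other tumor arrays, and tumor replicate 1 also had the highest Ccn1 signal, 11.34. Without that array Ccn1 was still higher in tumor cells, by 3.45 against adult (adjusted p = 2.59e-06) and by 1.16 against ADM (adjusted p = 0.0228). The part of an immediate early response in the Ccn1 signal was not tested.

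**Figure D5:**
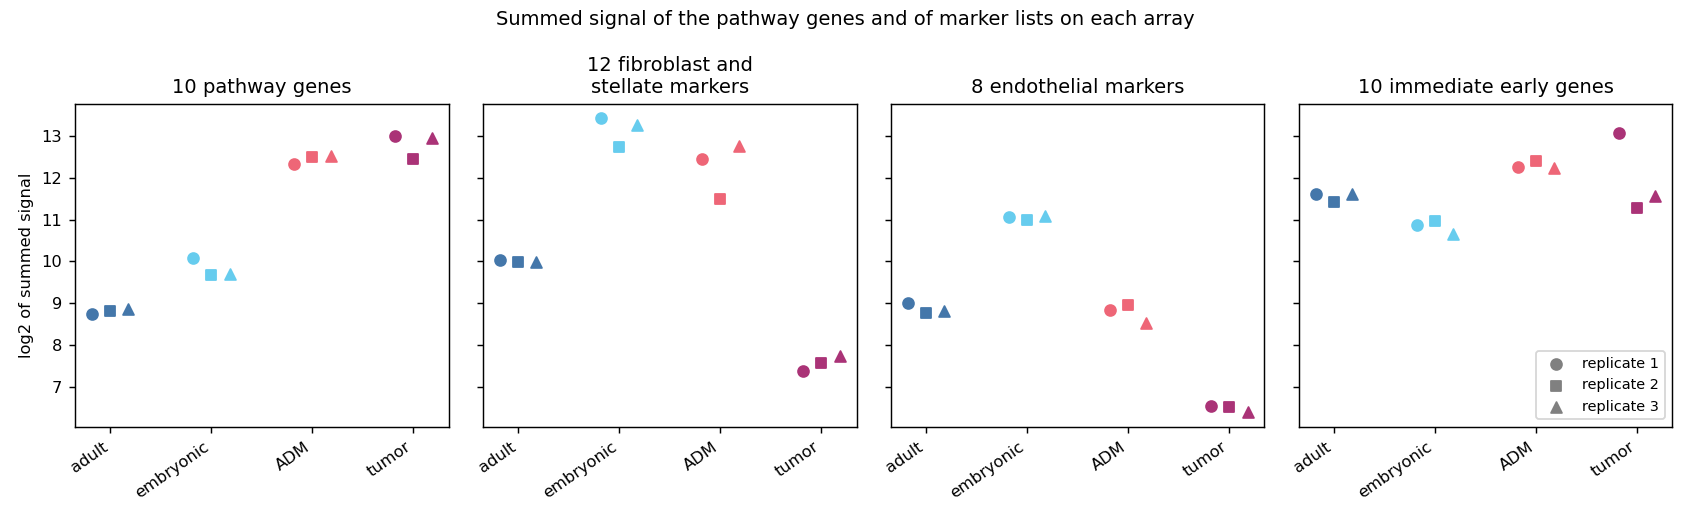
Log2 of the summed linear signal (y axis) of the 10 pathway genes, 12 fibroblast and stellate markers, 8 endothelial markers and 10 immediate early genes on each array by group (x axis), with a symbol for each replicate number. The sum of the 10 pathway genes is 12.45 to 12.99 on tumor arrays, where the fibroblast sum is 7.37 to 7.73.

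The genes closest in pattern to Ccn2 were F3, Pla2g4a and Tnfrsf12a. Likeness was the root mean square difference of the 4 group means after centring each gene, over 13857 genes with a group mean above background, and it was 0.249, 0.299 and 0.322 on the log2 scale. Pla2g4a, a cytosolic phospholipase A2 that frees arachidonic acid, averaged 3.53, 5.55, 8.73 and 8.30 on adult, embryonic, ADM and tumor arrays. Tnfrsf12a, the receptor for the cytokine TWEAK, averaged 4.36, 6.01, 9.52 and 9.65 in the same order. Only 7 genes lay within 0.5 of Ccn2. For Yap1 the nearest were Morn3, BC005624 and Spag4 (0.0161, 0.0315 and 0.0334), but 8499 genes lay within 0.5 of its nearly level pattern.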

How the data were processed

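The 12 arrays were described by 1 deposited table of log2 values with 2 decimals. Per the labels' protocols, biotin-labelled total RNA was hybridised by the standard Affymetrix protocol. The software, summarisation and normalization behind the authors' log2 signal are not given in the sources used here, and the log base was inferred from the range of 1.56 to 13.67. Precision is limited by the number of arrays.

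Of 41345 probe sets, 23521 carried 1 gene symbol, 1814 several and 16010 none in the platform annotation, and only the first kind was used, giving 22180 genes by the brightest probe set. All 12 arrays were fitted with 4 group means in limma 3.58.1 (R 4.3.3, lmFit, contrasts.fit, eBayes; 8 residual and 5.02 prior degrees of freedom), without replicate block, for 6 contrasts, two-sided. Background was set at percentile 95 over the group means of 1394 receptor genes, and a fold against a group at or under it is computed against it and written "at least". Alternatives were quantile normalization, housekeeping centring, dim genes left out, the mean of probe sets, only the arrays compared, the replicate block and leaving out each array. The fit was tested on simulated data. The members and lists were chosen with earlier results of these data known. Named were all 10 members, fixed pathway genes (Wwtr1, Tead2 to Tead4, Lats1, Lats2), up to 4 called genes per list and the 3 nearest patterns. Genes named from marker lists were chosen after their values were seen. Deviations of same-numbered arrays correlated between -0.0476 and 0.128, so the numbers were not taken as pairs. Arrays of a group shared at most 1.85% of values exactly.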

Additional observations from a re-analysis of the deposited data

How the results depend on the processing

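Counts of called genes among the 10 stayed within 1.5 times under every alternative run. Leaving out each array gave 8 for ADM against adult, 4 to 6 for embryonic against adult, 7 for tumor against adult, 2 for tumor against ADM, 6 to 7 for ADM against embryonic and 7 for tumor against embryonic cells. The replicate block gave 8, 5, 7, 2, 6 and 7 in the same order, and 3702, 2799, 4431, 1834, 2093 and 3173 over all genes beside 3701, 2797, 4429, 1852, 2098 and 3179 without it, and it changed no call of a member. Housekeeping centring raised the count over all genes from 3701 to 10431 for ADM against adult and from 4429 to 10880 for tumor against adult.

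Signs turned only for differences that were not called. Under quantile normalization Amotl2 turned to -0.0228 (ADM) and -0.178 (embryonic), Tead1 to -0.246 (embryonic), Ankrd1 to 0.0506 (embryonic) and Yap1 to -0.502 (tumor), all against adult. Under housekeeping centring, against adult, Amotl2 turned to -0.573, -0.318 and -0.451 (ADM, embryonic, tumor), Tead1 to -0.224 (embryonic) and -0.271 (tumor) and Yap1 to -0.817 (tumor). Against embryonic cells Yap1 turned to -0.0285 and Amotl2 to -0.255 in ADM, and Tead1 to -0.0464 and Amotl2 to -0.133 in tumor cells. The mean of probe sets turned Yap1 to -0.147 (tumor against adult). Leaving out arrays gave Yap1 -0.133 to 0.0417 (ADM against adult) and -0.05 to 0.125 (tumor against adult), and Ankrd1 -0.365 to 0.19 (embryonic against adult). For tumor against ADM it gave Amotl2 -0.0467 to 0.283, Ajuba -0.273 to 0.257 and F3 -0.45 to 0.13. For the scalings, the cause was not tested. With background at the 90th or 99th percentile, the lowest rise of Ankrd1 in ADM was 5.87 or 4.84 in place of 5.60, and at the 99th percentile it was 6.41 in place of 7.17 in tumor cells. Groups of 3 arrays and unknown upstream normalization limit small differences most.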
